A study of Mus musculus with 12 samples.

Results

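The mitosis genes examined here are a list of 42 mouse genes chosen by their known place in cell division: CDK1 with its cyclins and phosphatase, the other mitotic kinases, the spindle checkpoint and anaphase machinery, the kinetochore, the chromosomal passenger complex, spindle motors, cytokinesis proteins, and a topoisomerase, a transcription factor and a proliferation marker. They were matched by symbol in a count table of 23366 gene symbols. All 42 were present, and all 42 were among the 13882 genes with enough reads to be tested. RNA-seq was done on embryonic fibroblasts (MEFs, cells grown out of mouse embryos) of strain C57BL/6 at passages 3 to 5, either wild-type (WT) or knocked out for Carm1 (KO), an arginine methyltransferase that modifies histones and other proteins. Each genotype was grown in DMEM with 10% fetal bovine serum ("rich", time 0 h) or held for 18 h in DMEM without glucose and with 10% dialyzed serum ("starved"). The starved groups thus differ from the rich groups in serum and in time as well as in glucose. No rich group was held for 18 h, so these cannot be told apart. The 4 groups hold 2 libraries each, and the labels do not say whether these came from separate cultures. P-values therefore measure only the spread between these libraries, which may be technical. The labels do not say how the knockout was made or how many embryos or lines the cells came from, and 4 chromatin immunoprecipitation and input libraries of the study are not analysed here.

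Mitosis begins when the CDK1 kinase, bound to cyclin B, is switched on, and ends when the anaphase-promoting complex, helped by Cdc20 and the ubiquitin-conjugating enzyme Ube2c, marks cyclin B and securin for destruction. Transcripts of these genes accumulate late in the cell cycle and are low in cells that have left it, so that in a mixed culture their level follows the share of dividing cells. Many of their promoters carry a cell cycle homology region (CHR), a short element bound by the DREAM and MuvB complexes, together with CCAAT boxes, the element bound by NF-Y. MuvB works with the factors B-Myb and FoxM1 to switch these genes on before division, and DREAM holds the same promoters silent in resting cells.

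Library totals ran from 8447014 counts (KO rich replicate 1) to 28155431, and no mitosis gene had fewer than 99 counts in any library. Levels are given as CPM, counts scaled to library size by edgeR's TMM factors and with replicate 1 before replicate 2. CPM does not correct for transcript length, so levels are compared within a gene and not between genes. Carm1 itself, the check of the labels, stood at 207 and 204 CPM in rich and 176 and 164 in starved WT cells, against 48.1 and 70.8 in rich and 53.9 and 58.6 in starved KO cells. The KO rich pair stood apart: the log2 ratio of its replicates had an SD of 0.688 over all genes, against 0.171 to 0.173 in the other groups. This ratio does not say which of the replicates departs, although replicate 1 had the lowest total. The labelled cell type is carried by Col1a1, Col1a2, Fn1 and Vim, which were at 636 CPM or more in every library, but other fibroblast markers separated the genotypes. Thy1 averaged 0.130 (rich) and 0.114 (starved) CPM in WT against 129 and 174 in KO cells, Dcn 0.453 and 0.740 against 1663 and 1212, and Lum was at 0 in all WT libraries. Of the endothelial markers, the cadherin Cdh5 averaged 0.0357 and 0.0173 CPM in WT against 140 and 239 in KO cells, whereas Kdr went the other way, 1.80 and 3.98 against 0 and 0.0831. Emcn was at 0 in every library and Pecam1 reached at most 5.54 CPM. Ptprc, which marks all leukocytes, was at 0 in WT and at 0.255 and 0.728 CPM in KO cells. Itgam (0 and 0 against 3.44 and 1.80), Csf1r (0.0821 and 0.0693 against 1.35 and 2.16) and Lyz2 (0 and 0.0346 against 2.47 and 2.00) were also higher in KO cells. Emr1 was at 0 in WT and at 0.123 and 0 CPM in KO cells. Only Cd68 was higher in WT (2.25 and 5.04 against 1.60 and 1.48). Over the 12 fibroblast markers the summed group means were 11946, 8448, 17562 and 17039 CPM (WT rich, WT starved, KO rich, KO starved), and over the 5 endothelial markers, where Cdh5 makes up nearly all of the KO sum, 2.19, 4.40, 145 and 244. The 6 leukocyte markers summed to 2.33, 5.14, 9.24 and 8.17 CPM and the 4 neural markers, almost all of it Tubb3 and Map2, to 112, 109, 243 and 367. The part of these marker differences in the results between genotypes was not tested.

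Most of the mitosis genes were lower in WT cells after 18 h without glucose. Summed over the 42 genes, the rich WT libraries held 9183 and 9032 CPM and the starved ones 4272 and 4134. Of the 42, 31 fell and 0 rose, where "fell" and "rose" mean an adjusted p under 0.05 in edgeR's quasi-likelihood test with Benjamini-Hochberg adjustment over all 13882 genes. Over those 13882 genes 32.8% passed, 18.0% falling and 14.8% rising. The median log2 fold change was -1.04 for the 42 genes and 0 for all genes tested. At an unadjusted p under 0.05 the counts were 32 and 0, where 3237 of all 13882 genes were lower and 2889 higher. DESeq2 called 31 lower and 0 higher, against 21.0% and 16.4% of all genes. In 41 of the 42 genes both starved libraries lay below both rich libraries, an ordering found in 40.8% of all genes, and only Ndc80, a kinetochore protein, lay above (41.0% of all genes). In bulk RNA, fewer cells near mitosis and less of each transcript per cell cannot be told apart. Leaving out KO rich replicate 1 or replicate 2 raised the number that fell to 41 and made Ndc80 a call (1 rose in each case), and over all genes it raised the share that fell to 34.3% and 33.5%. Leaving out WT starved replicate 1 or 2 lowered the number to 19 (7.18% and 6.52% of all genes) and WT rich replicate 1 or 2 to 21 and 20 (7.47% and 7.12%).

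**Figure D1:**
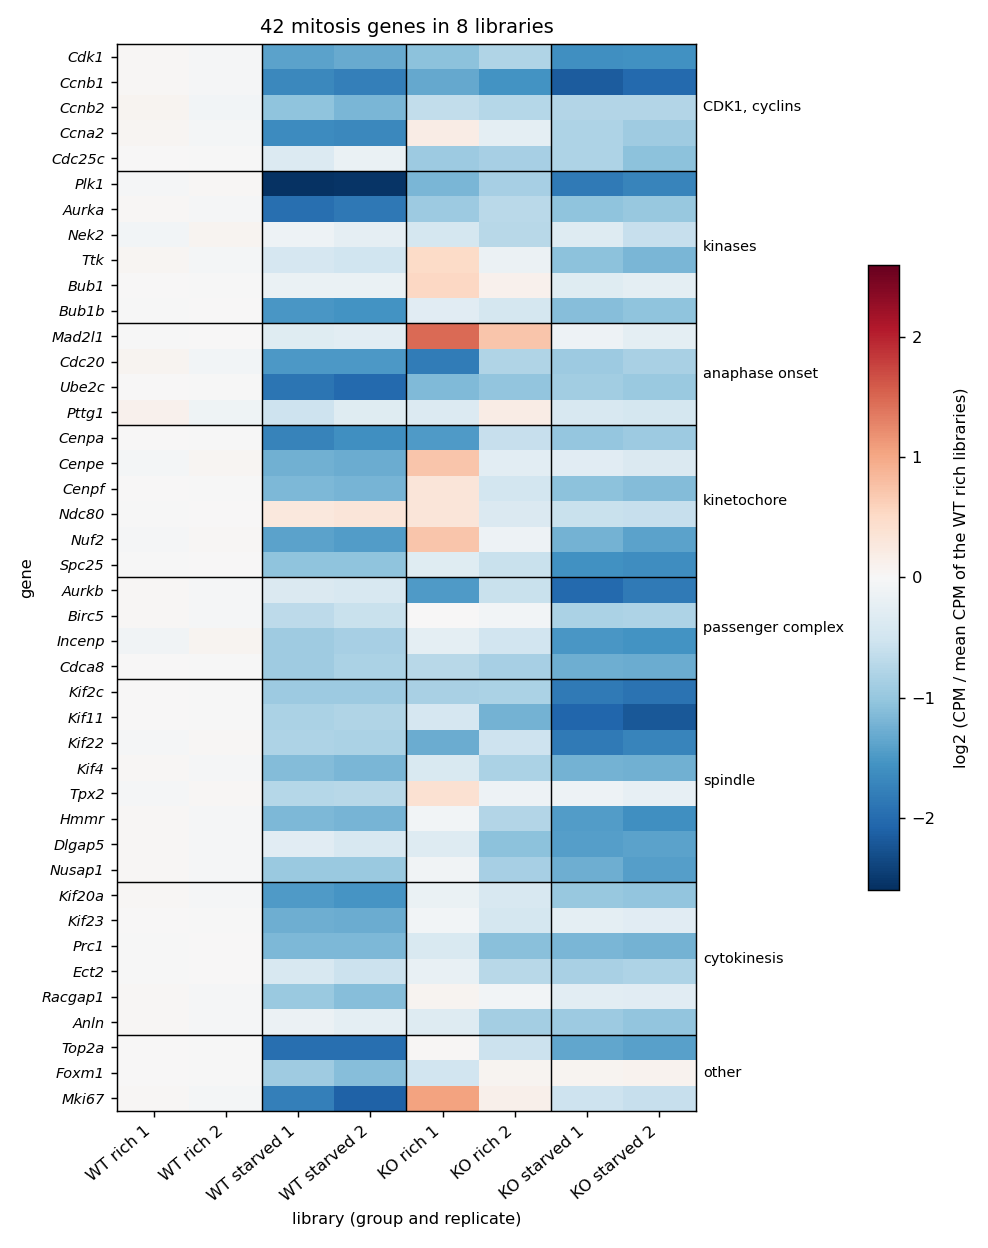
Each cell is the level of 1 mitosis gene (rows, in role order) in 1 library (columns), as log2 of its CPM over the mean CPM of the WT rich libraries; blue is lower and red higher. The WT starved columns are blue for 41 of 42 genes, while the KO rich columns mix blue with red and the 2 replicates differ from each other.

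Most of the genes were also lower in starved than in rich KO cells, with a median log2 fold change of -0.66. The summed level went from 9241 and 6682 CPM in the rich KO libraries to 4901 and 4754 in the starved ones. Of the 42 genes 24 fell and 0 rose, against 18.2% of all genes that passed, 9.77% falling and 8.44% rising. Unadjusted, 27 were lower and 0 higher, where 2526 of all 13882 genes were lower and 2210 higher. DESeq2 called 25 and 0, against 14.7% and 11.3% of all genes. Both starved libraries lay below both rich ones in 34 genes, above them in 2 and overlapped them in 6, where 26.6% of all genes lay below and 28.7% above. A fit of edgeR to the 4 KO libraries alone called 0 of the 42 genes and 0 of all 12693 genes it tested. In that fit 24 of the 42 and 2803 of all genes had an unadjusted p under 0.05. Without KO starved replicate 1 or 2 the number that fell was 1 and 0 (0.749% and 0.756% of all genes), without either WT rich library it was 13 (4.45%) and without either WT starved library 14 (4.73% and 4.90%). Without KO rich replicate 1 it was 30, with 2 higher (24.4% and 25.4% of all genes), and without replicate 2 it was 33, with 4 higher (26.2% and 32.9%).

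The responses of the 2 genotypes differed for some of the genes. The difference between responses, KO minus WT, passed the test in 12 genes, all with a smaller fall or no fall in KO cells: Ube2c, Cdc20, Plk1, Aurka, Cenpa, Foxm1, Kif23, Ccnb1, Ccnb2, Bub1b, Kif20a and Racgap1. Over all genes 13.3% passed, 7.43% with a higher and 5.91% with a lower response in KO cells. In the opposite direction 0 of 42 genes passed, and 3 did at an unadjusted p under 0.05, as did 2030 of all 13882 genes. DESeq2 and limma-voom with library weights called 1 each in this direction, against 9.44% and 5.76% of all genes. The median difference was 0.35 on the log2 scale over the 42 genes and 0.00 over all genes. By role, 3 of 6 cytokinesis genes, 3 of 6 kinases, 2 of 4 anaphase genes, 2 of 5 of the CDK1 group, 1 of 6 kinetochore genes and 1 of 3 of the remaining group passed, against 0 of 4 passenger complex genes and 0 of 8 spindle genes (smallest adjusted p = 0.184 and 0.177, with 0 of either group under an unadjusted p of 0.05). In fits without KO rich replicate 1 or replicate 2 that group held 1 library. Across these fits mitosis genes passed in both directions. Larger shares of all genes also passed, in both directions, than with no library left out. The counts of these fits are therefore no result about the mitosis genes as a group. The median difference over the 42 genes was then 0.56 and 0.30 (all genes 0.02 and 0.18). Without any 1 of the WT rich, WT starved or KO starved libraries 3 genes remained (2.23% to 2.39% of all genes), Plk1, Aurka and Ube2c, which passed in all 16 settings tried.

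**Figure D2:**
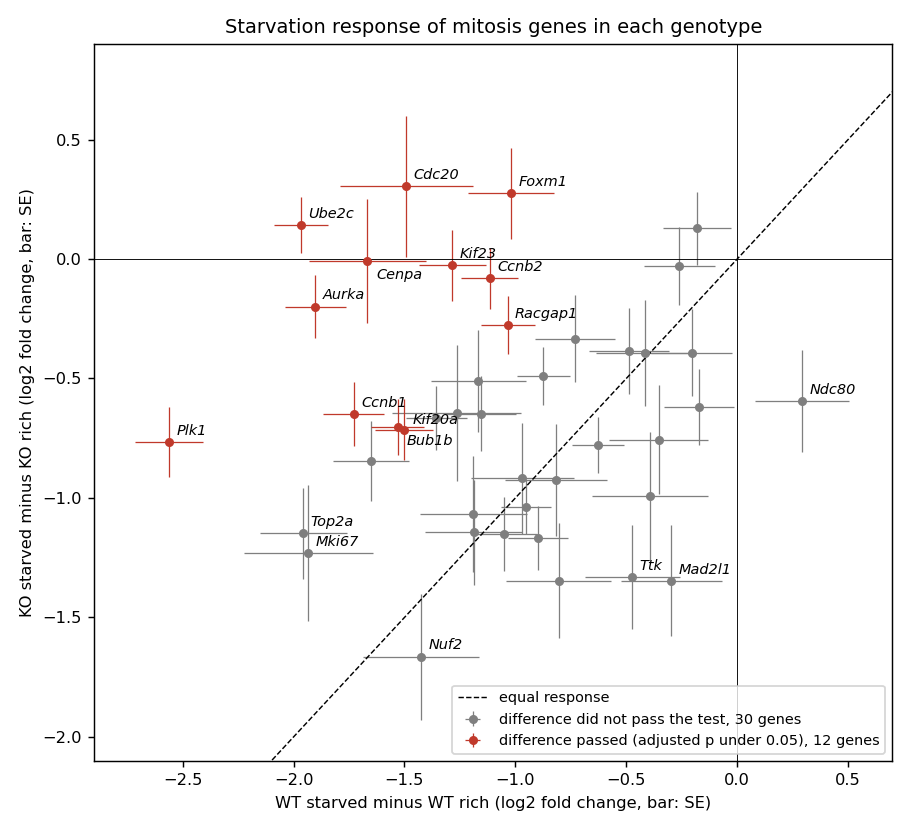
Each point is 1 mitosis gene, with its log2 fold change on starvation in WT cells on the x axis and in KO cells on the y axis; bars are standard errors and the dashed line marks equal responses. The 12 red points, whose difference passed the test, all lie above the line, with Ube2c, Cdc20 and Foxm1 above 0 on the KO axis.

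In rich medium the KO cells already held lower levels of many of these transcripts. Relative to WT, 21 of 42 genes were lower and 1, Mad2l1, was higher, against 20.7% and 23.4% of all genes (44.1% in either direction), and the median log2 fold change was -0.44 (all genes 0.00). Both KO libraries lay below both WT libraries in 27 genes (35.8% of all genes), above them in 3 (34.1%), and overlapped them in 12. Only 6 genes kept their call in all 17 settings: Cdk1, Ccnb1, Plk1, Aurka, Ube2c and Kif2c. Without KO rich replicate 1 there were 33 lower and 1 higher (33.6% and 32.3% of all genes), and without replicate 2 there were 25 lower and 10 higher (38.4% and 34.3%). Leaving out WT rich replicate 1 or 2 gave 8 and 9 lower with 0 higher (at most 11.3% of all genes lower), the starved WT libraries 13 and 12 (15.9% and 15.8%), the starved KO libraries 13 and 14 (16.0% and 16.3%), and a fit to these 4 libraries alone 7 lower and 0 higher (11.4% and 13.2% of all genes).

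After starvation 13 genes were higher and 12 lower in KO than in WT cells, shares near the 27.8% and 26.8% of all genes (54.6% in either direction), and the median difference was -0.07 (all genes -0.02). These counts are no result about the mitosis genes as a group, and the genes called are named only as a description. All 3 of Top2a, Foxm1 and Mki67 were higher, as were 3 of 6 kinases (Plk1, Aurka, Bub1b) and 3 of 6 cytokinesis genes (Kif20a, Kif23, Racgap1), whereas 3 of 4 passenger complex genes (Aurkb, Incenp and Cdca8) and 4 of 8 spindle genes (Kif2c, Kif11, Kif22 and Dlgap5) were lower. Both KO libraries lay below both WT libraries in 22 genes and above them in 18, and 2 overlapped (45.5% and 44.1% of all genes lay below and above). In all, 10 genes kept their call in all 17 settings. With a library left out its group held 1 library, so only the median differences are given here. Without WT starved replicate 1 or 2 the median was -0.08 in both fits (all genes -0.01 and 0). Without KO starved replicate 1 or 2 it was -0.08 and -0.05 (all genes -0.02 and -0.03). Without KO rich replicate 1 or 2 it was -0.07 and -0.06 (all genes -0.02 in both fits).

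The promoters of these genes are shown because most of the genes were lower in starved than in rich cells of each genotype. CHR and CCAAT elements are also the known control elements of this class. RefSeq promoter windows of 300 bases (250 before to 50 after the start, build GRCm38.p6, whereas the counts were made on mm9) matched 34 of the 42 genes, in 36 windows; Aurkb, Ccna2, Cdc25c, Dlgap5, Foxm1, Incenp, Kif20a and Tpx2 had no entry. The letters searched, on both strands, were TTTGAA and TTCGAA for the CHR and CCAAT for the NF-Y box. The stretches below are the 100 bases before the start, read 5′ to 3′ on the strand of the gene, with each match in capitals, TTCAAA and ATTGG being TTTGAA and CCAAT on the opposite strand. The first 7 are the members with both kinds of match inside those 100 bases. The last 3 are genes whose response differed between genotypes, with CCAAT there and the CHR letters, if any, after the start. These 3 were chosen after their values were seen. Cenpa, Kif23 and Racgap1 meet the same description and are not printed.
Ube2c (chr2:164769829-164769928, + strand): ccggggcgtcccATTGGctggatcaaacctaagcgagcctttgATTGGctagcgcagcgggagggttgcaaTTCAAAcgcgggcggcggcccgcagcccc
Cdc20 (chr4:118437344-118437443, - strand): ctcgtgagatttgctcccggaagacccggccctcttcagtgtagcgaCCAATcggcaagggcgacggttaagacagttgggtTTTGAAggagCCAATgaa
Cdk1 (chr10:69352913-69353012, - strand): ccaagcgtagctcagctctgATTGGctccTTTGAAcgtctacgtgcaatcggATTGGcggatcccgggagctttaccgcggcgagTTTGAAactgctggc
Top2a (chr11:99024190-99024289, - strand): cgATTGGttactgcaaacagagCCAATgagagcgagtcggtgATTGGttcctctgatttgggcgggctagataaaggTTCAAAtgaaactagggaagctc
Prc1 (chr7:80294376-80294475, + strand): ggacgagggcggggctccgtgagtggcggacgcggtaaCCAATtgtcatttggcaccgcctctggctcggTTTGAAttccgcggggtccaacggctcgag
Kif11 (chr19:37376282-37376381, + strand): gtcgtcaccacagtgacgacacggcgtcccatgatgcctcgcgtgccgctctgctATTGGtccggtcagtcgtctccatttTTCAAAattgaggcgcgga
Kif22 (chr7:127042421-127042520, - strand): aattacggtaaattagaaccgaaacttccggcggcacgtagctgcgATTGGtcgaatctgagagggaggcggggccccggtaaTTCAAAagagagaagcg
Plk1 (chr7:122159335-122159434, + strand): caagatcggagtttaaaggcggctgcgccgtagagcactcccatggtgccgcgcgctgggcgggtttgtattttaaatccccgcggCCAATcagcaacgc
Aurka (chr2:172370571-172370670, - strand): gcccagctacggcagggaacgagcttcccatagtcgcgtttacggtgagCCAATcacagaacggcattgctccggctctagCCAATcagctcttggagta
Ccnb1 (chr13:100786487-100786586, - strand): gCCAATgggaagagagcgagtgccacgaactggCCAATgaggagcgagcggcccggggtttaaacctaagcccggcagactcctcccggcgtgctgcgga

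TTTGAA stood in the windows of 25 of 34 mitosis genes (73.5%), against 17.9% of all 32851 windows, and TTCGAA in 3 (8.82%), against 1.56%. CCAAT stood in 26 (76.5%), against 37.4%, and at 2 or more places in 19 (55.9%), against 11.7%. Both kinds of match were in 23 of 34 (67.6%), against 7.52% of all windows and 5.8% of the windows of tested genes. In those 23 genes the last CHR match lay 9 to 153 bases after the nearest CCAAT before it, with a median of 35 bases, and in 16 genes the distance was 20 to 50 bases. Among the 34 genes 1 pair of CHR and CCAAT matches overlapped. Of the 10 matched genes whose starvation response differed between genotypes 9 had both kinds, and of the other 24 genes 14 did. Nuf2, Nusap1, Mad2l1, Pttg1 and Birc5 had neither in the window, which says only that these letters are not there. A match describes the letters and is not evidence of binding.

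**Figure D3:**
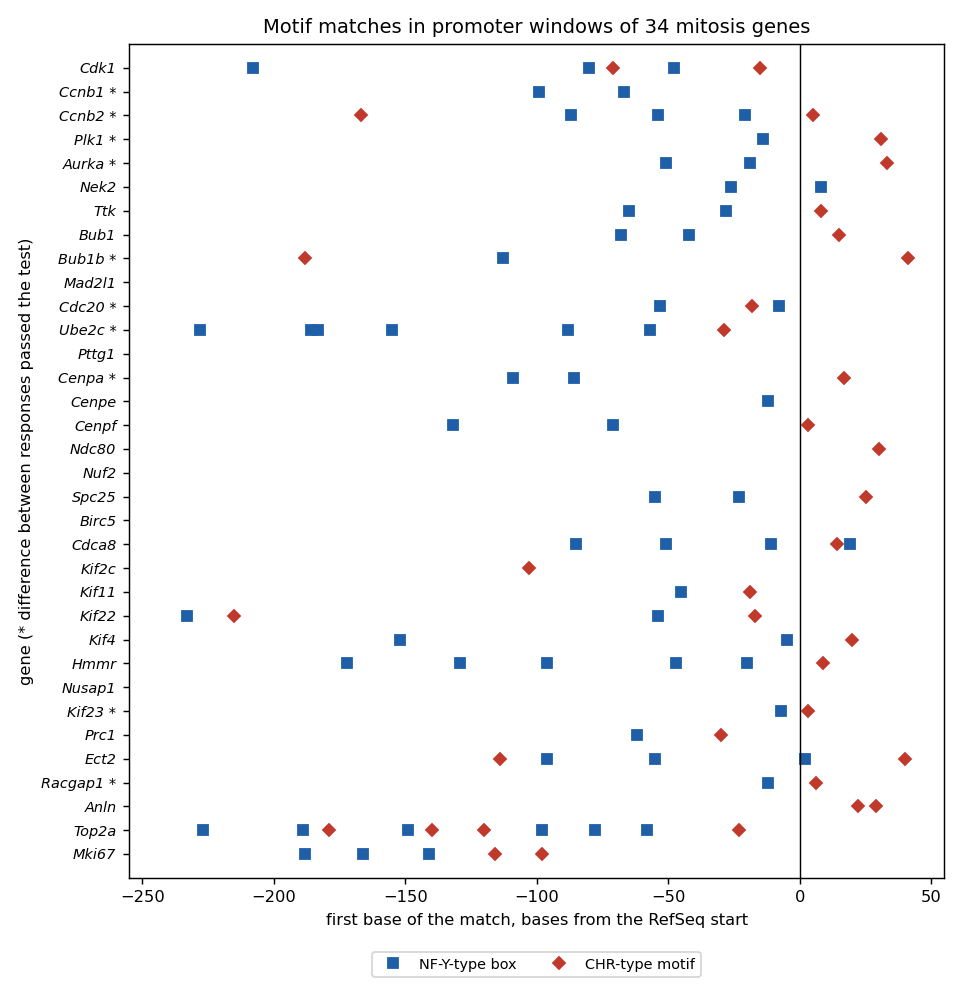
Positions of CCAAT (blue squares) and of TTTGAA or TTCGAA (red diamonds) in 1 promoter window of each of 34 mitosis genes, in bases from the RefSeq start on the strand of the gene; asterisks mark genes whose response differed between genotypes. The CHR matches of most genes sit near the start, downstream of a CCAAT match, and 5 rows are empty.

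Of CDK1, its cyclins and its phosphatase, 4 of 5 genes fell in WT and 3 of 5 in KO cells. Cdk1, the kinase that drives entry into mitosis, stood at 237 and 227 CPM in the rich WT libraries, 87.9 and 93.4 in the starved WT, 111 and 135 in the rich KO and 77.3 and 78.1 in the starved KO libraries. Both starved WT libraries lay below every rich WT library, and the rich KO libraries lay between these. Cdk1 fell in both genotypes, with a log2 fold change of -1.36 ± 0.14 in WT (adjusted p = 0.00074) and -0.67 in KO cells, and was lower in rich KO than rich WT cells (-0.91). Ccnb1, the main mitotic cyclin and partner of CDK1, measured 188 and 180.1 CPM in rich and 57.7 and 53.3 in starved WT cells, and 73.2 and 62.5 in rich and 41.2 and 45.2 in starved KO cells. The KO cells were low before starvation: Ccnb1 had the smallest p of the 42 genes between genotypes in rich medium (log2 fold change -1.44 ± 0.14, adjusted p = 0.000225). It fell by 1.73 in WT and by 0.65 in KO cells on the log2 scale, a difference of 1.08 (adjusted p = 0.0135). Ccnb2, the second B-type cyclin, gave 105 and 95.4 CPM in the rich WT libraries, 48.6 and 44.0 in the starved WT, 64.9 and 60.0 in the rich KO and 59.0 and 58.9 in the starved KO libraries, so the starved and rich KO libraries were near each other while the WT libraries were not. Its difference between responses was 1.03 (adjusted p = 0.0131). Ccna2, the cyclin of S phase and early mitosis, read 342 and 316 (WT rich), 106 and 103 (WT starved), 374 and 275 (KO rich) and 188 and 173 CPM (KO starved). It fell in both genotypes, and in starved cells it was higher in KO by 0.79 (adjusted p = 0.00613). Cdc25c, the phosphatase that activates CDK1, was at 33.6 and 33.3 CPM in the rich WT libraries, 26.2 and 29.6 in the starved WT, 17.5 and 18.4 in the rich KO and 19.3 and 15.9 in the starved KO libraries. It changed with genotype (log2 -0.90 in rich and -0.66 in starved cells) and did not pass the test for starvation in either genotype (-0.26 and -0.03).

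Of the 6 other mitotic kinases, 3 fell in WT and 4 in KO cells. Plk1, which acts in mitotic entry, centrosome maturation and cytokinesis, stood at 151 and 157 CPM in the rich WT libraries, 25.9 and 26.2 in the starved WT, 67.7 and 85.1 in the rich KO and 43.2 and 46.8 in the starved KO libraries. The WT fall was the steepest of the 42 genes, 5.90-fold (log2 -2.56 ± 0.15, adjusted p = 0.000156), and the KO fall was 1.70-fold. The difference between them was 1.79 ± 0.21 (adjusted p = 0.00321). Aurka, the centrosome and spindle pole kinase, was at 133 and 129 CPM in rich and 33.9 and 36.2 in starved WT cells, and 68.3 and 81.1 in rich and 63.8 and 66.6 in starved KO cells. The starved WT libraries were the lowest of the 8, and those of the rich and starved KO cells were close. Aurka fell in WT cells (log2 -1.90), while in KO cells the value was -0.20 (adjusted p = 0.334), and the responses differed by 1.70 ± 0.19 (adjusted p = 0.00277). The Aurka span overlaps that of Cstf1 in RefSeq, and the labels do not say whether reads were counted by strand. Cstf1 had a WT log2 fold change of 0.07 (adjusted p = 0.739) and rose in KO cells (0.62, adjusted p = 0.0216). Its difference between responses was 0.55 (adjusted p = 0.101). Whether Cstf1 reads add to the Aurka counts was not tested. Bub1b, the checkpoint protein BubR1, read 219 and 223 (WT rich), 77.8 and 75.3 (WT starved), 179.8 and 162 (KO rich) and 102 and 108 CPM (KO starved). It fell in both genotypes, and less in KO cells (difference 0.83, adjusted p = 0.0206).

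Among the kinases, 3 did not pass the test for starvation in WT cells. Bub1, the kinetochore kinase that recruits checkpoint proteins, was at 139.7 and 137 CPM in the rich WT libraries, 122 and 123 in the starved WT, 201 and 149 in the rich KO and 112 and 116 in the starved KO libraries. It fell in KO cells (log2 -0.62), where the higher of the rich libraries was replicate 1. Ttk, the kinase (Mps1) that starts the spindle checkpoint, was at 59.0 and 55.2 CPM in rich and 42.5 and 39.8 in starved WT cells, and 80.5 and 51.2 in rich and 27.2 and 25.0 in starved KO cells. In KO cells Ttk fell by 2.52-fold, and the starved KO libraries were the lowest of the 8; the difference between responses was -0.86 (adjusted p = 0.111). Nek2, a centrosome kinase, was at 94.0 and 104 (WT rich), 89.9 and 84.6 (WT starved), 72.1 and 60.0 (KO rich) and 78.6 and 65.6 CPM (KO starved). Its starvation values did not pass in WT or KO cells (log2 -0.18 and 0.13, adjusted p = 0.404 and 0.604), and it was lower in rich KO than rich WT cells (-0.59).

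Of the 4 genes of the checkpoint and of anaphase onset, 2 fell in WT and 1 in KO cells. Ube2c, which supplies ubiquitin to the anaphase-promoting complex, stood at 196 and 192 CPM in the rich WT libraries, 51.6 and 47.6 in the starved WT, 88.1 and 95.6 in the rich KO and 103 and 99.8 in the starved KO libraries. Every rich WT library was above every other library, and the 4 KO libraries lay in a narrow range above the starved WT libraries. In WT cells Ube2c fell 3.91-fold (log2 -1.97 ± 0.12, adjusted p = 0.000168); in KO cells the log2 value was 0.14 ± 0.12 (adjusted p = 0.433). The difference, 2.11 ± 0.17 (adjusted p = 0.00106), had the smallest p of the 42 genes. Cdc20, the activator of that complex, was at 142 and 129 CPM in rich and 48.3 and 48.2 in starved WT cells, and 38.5 and 79.3 in rich and 70.8 and 75.8 in starved KO cells. The KO rich replicates were far apart, replicate 1 being 0.485 of replicate 2, and the starved KO libraries fell between them. Cdc20 fell in WT cells (log2 -1.49) and its difference between responses was 1.80 (adjusted p = 0.0335); it overlaps Elovl1, which had a WT value of -0.37 and a difference of 0.57 (adjusted p = 0.36 and 0.388). Mad2l1, the checkpoint protein MAD2, was at 86.1 and 87.1 (WT rich), 69.7 and 71.3 (WT starved), 242 and 143 (KO rich) and 78.5 and 72.6 CPM (KO starved). Both rich KO libraries were above all others, although apart from each other. Mad2l1 was the only mitosis gene higher in rich KO than in rich WT cells (log2 1.15 ± 0.23, adjusted p = 0.00655), and it fell in KO cells by 2.54-fold. Pttg1, securin, was at 16.9 and 14.4 CPM in the rich WT libraries, 10.8 and 12.6 in the starved WT, 12.2 and 17.9 in the rich KO and 11.7 and 11.4 in the starved KO libraries and passed in none of the comparisons (smallest adjusted p = 0.19).

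**Figure D4:**
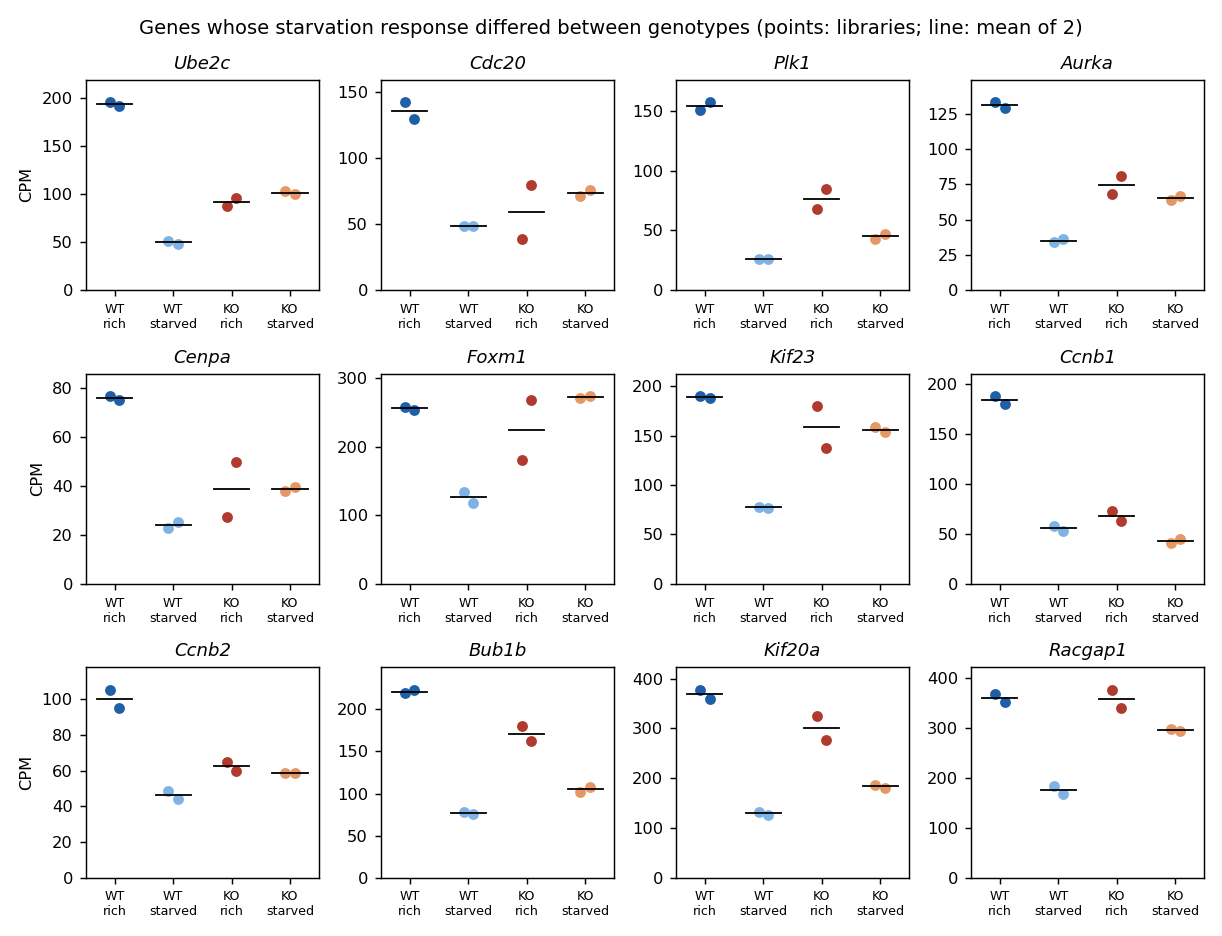
CPM in each of the 8 libraries (points) and the mean of the 2 libraries of a group (lines) for the 12 mitosis genes whose starvation response differed between WT and KO cells; each panel has its own axis from 0. In each of the 12 panels the WT starved points lie below the WT rich points by a wider gap than in KO cells.

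Centromere and kinetochore genes fell in WT cells in 5 of 6 cases and in KO cells in 3 of 6. Cenpa, the histone H3 variant that marks the centromere, was at 76.6 and 75.1 CPM in the rich WT libraries, 22.6 and 25.1 in the starved WT, 27.2 and 49.8 in the rich KO and 37.7 and 39.5 in the starved KO libraries. It fell in WT cells (log2 -1.67), and in KO cells the starved libraries lay between the widely spaced rich ones; the difference between responses was 1.66 (adjusted p = 0.0287). Cenpe, a kinetochore motor, was at 197 and 209 CPM in rich and 85.2 and 83.5 in starved WT cells, and 336 and 168 in rich and 165 and 156 in starved KO cells. It fell in WT cells, and in KO cells its value was -0.64 (adjusted p = 0.163), with the rich replicates 2.00-fold apart. Cenpf, a large protein of the outer kinetochore, was at 207 and 203 (WT rich), 91.1 and 88.4 (WT starved), 256 and 146 (KO rich) and 97.5 and 94.0 CPM (KO starved) and fell in both genotypes. The NDC80 complex, which grips the ends of microtubules, was measured through Ndc80, Nuf2 and Spc25. Nuf2 stood at 86.1 and 90.5 CPM in the rich WT libraries, 33.7 and 32.1 in the starved WT, 146 and 80.6 in the rich KO and 37.7 and 33.6 in the starved KO libraries and fell in WT (-1.43) and KO cells (-1.66). Spc25 stood at 44.5 and 45.4 CPM in rich and 21.6 and 21.7 in starved WT cells, and 36.3 and 30.0 in rich and 15.1 and 14.6 in starved KO cells. Its log2 values were -1.05 in WT and -1.15 ± 0.15 in KO cells (adjusted p = 0.00443), and it was lower in KO cells in both media. Ndc80 stood at 80.1 and 81.9 (WT rich), 97.6 and 101 (WT starved), 100.3 and 62.3 (KO rich) and 53.9 and 53.4 CPM (KO starved). The starved WT libraries were above the rich ones (log2 0.29, adjusted p = 0.329), whereas the starved KO libraries were the lowest of the 8, and in starved cells Ndc80 was lower in KO (log2 -0.89, adjusted p = 0.0103).

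The chromosomal passenger complex, which corrects faulty attachments and then directs cytokinesis, fell in KO cells in all 4 of its subunits and in WT cells in 3. Aurkb, its kinase, was at 98.2 and 93.9 CPM in the rich WT libraries, 74.1 and 72.3 in the starved WT, 34.7 and 64.6 in the rich KO and 23.6 and 26.7 in the starved KO libraries. The starved KO libraries were the lowest of the 8. Its WT value was -0.39 (adjusted p = 0.293), it fell in KO cells (-0.99), and in starved cells KO was lower than WT by 2.91-fold. Incenp, the scaffold of the complex, was at 272 and 304 CPM in rich and 151 and 158 in starved WT cells, and 243 and 205 in rich and 101 and 98.6 in starved KO cells. It fell in WT (log2 -0.90) and in KO cells (-1.17 ± 0.14, adjusted p = 0.00294). Birc5, survivin, was at 152 and 146 (WT rich), 92.6 and 100.4 (WT starved), 151 and 141 (KO rich) and 84.7 and 85.8 CPM (KO starved) and Cdca8, borealin, at 119 and 118 (WT rich), 62.3 and 66.6 (WT starved), 72.1 and 65.1 (KO rich) and 49.0 and 48.6 CPM (KO starved). Both fell in each genotype, Birc5 with log2 values of -0.63 and -0.78 and Cdca8 with -0.87 and -0.49 (WT and KO). Between genotypes Birc5 passed in neither medium, while Cdca8 was lower in KO cells in both.

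Spindle motors and spindle-binding proteins, the largest role with 8 genes, had the most genes that fell in both genotypes. Of the 8, 7 fell in WT and 6 in KO cells, against 3 and 4 of the 4 passenger complex genes. Kif2c, a kinesin that takes microtubules apart at centromeres, stood at 149.6 and 149 CPM in the rich WT libraries, 77.1 and 77.0 in the starved WT, 82.6 and 84.0 in the rich KO and 41.9 and 39.2 in the starved KO libraries. The replicates were close in every group, the rich WT libraries were the highest and the starved KO libraries the lowest. Kif2c fell in WT (-0.95 ± 0.11) and KO cells (-1.04 ± 0.11, adjusted p = 0.00256), with a difference between responses of -0.09 ± 0.16 (adjusted p = 0.779), and it was lower in KO in both rich (-0.84 ± 0.11) and starved cells (-0.92 ± 0.11, adjusted p = 0.000495). Kif11 (Eg5), which pushes the spindle poles apart, was at 287 and 281 CPM in rich and 160.1 and 165 in starved WT cells, and 210.1 and 122 in rich and 68.3 and 61.9 in starved KO cells. It was lower in all 4 comparisons of groups, with the lowest levels in starved KO cells (-1.32 against starved WT). Kif22, which moves chromosome arms, was at 83.6 and 86.9 (WT rich), 48.6 and 48.1 (WT starved), 34.9 and 58.9 (KO rich) and 23.9 and 25.9 CPM (KO starved), and was lower in all 4 comparisons too. Kif4, a motor on chromosomes, fell in WT (-1.16) and KO cells (-0.65), from 175 and 168 to 78.8 and 75.3 CPM and from 130.3 and 97.1 to 73.2 and 71.9 CPM.

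Among the proteins that bind spindle microtubules, Tpx2, an activator of Aurora A, was at 335 and 348 CPM in the rich WT libraries, 205 and 206 in the starved WT, 452 and 309.5 in the rich KO and 309.6 and 294 in the starved KO libraries. It fell in WT cells (-0.73), its KO value was -0.33 (adjusted p = 0.242), and it was the 1 spindle gene higher in starved KO than in starved WT cells (0.55). Hmmr, a spindle protein and hyaluronan receptor, was at 145 and 141 (WT rich), 63.8 and 62.0 (WT starved), 137 and 84.4 (KO rich) and 52.1 and 47.7 CPM (KO starved), and Nusap1, which bundles spindle microtubules, at 159 and 154 (WT rich), 79.9 and 79.9 (WT starved), 146 and 86.2 (KO rich) and 64.5 and 58.0 CPM (KO starved). Both genes fell in each genotype, with log2 values of -1.19 and -1.14 for Hmmr and -0.97 and -0.92 for Nusap1 (WT and KO). Dlgap5, which stabilises microtubules near chromosomes, was at 133 and 126 CPM in rich and 105 and 97.6 in starved WT cells, and 103 and 61.6 in rich and 47.8 and 49.1 in starved KO cells. It did not pass for starvation in either genotype (-0.35, adjusted p = 0.267, and -0.76, adjusted p = 0.0604), and it was lower in KO cells in rich (-0.66) and starved medium (-1.06).

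Central spindle and cytokinesis genes fell in WT cells in 4 of 6 cases and in KO cells in 1. Kif20a (MKLP2), which carries the passenger complex to the midzone, stood at 377 and 359 CPM in the rich WT libraries, 133 and 127 in the starved WT, 326 and 277 in the rich KO and 186 and 181 in the starved KO libraries. It fell in both genotypes, less in KO cells (difference 0.79, adjusted p = 0.0321); its span overlaps those of Brd8 and Cdc23. RefSeq spans also overlap for Ccna2 with Exosc9, Nusap1 with Oip5, Prc1 with Rccd1 and Anln with 9530077C05Rik. These are spans of whole genes, and how much of the counted sequence is shared was not tested. Without strand, only reads from a stretch that both genes share cannot be told apart. Kif23 and Racgap1 together form centralspindlin, and both fell in WT cells and did not pass in KO cells. Kif23 was at 190.0 and 188 CPM in rich and 78.3 and 77.1 in starved WT cells, and 180.2 and 138 in rich and 158 and 153 in starved KO cells (difference 1.26, adjusted p = 0.0114). Racgap1 was at 367 and 351 CPM in rich and 184 and 167 in starved WT cells, and 375 and 339.8 in rich and 298 and 293 in starved KO cells (difference 0.76, adjusted p = 0.0303). For both, the starved WT libraries were the lowest of the 8. Prc1, which crosslinks midzone microtubules, was at 347 and 348 (WT rich), 154 and 155 (WT starved), 264 and 163 (KO rich) and 152 and 148 CPM (KO starved) and fell in WT cells (-1.17), with a KO value of -0.51 (adjusted p = 0.142). Ect2, which activates RhoA at the cleavage furrow, was at 166 and 167 (WT rich), 125 and 113 (WT starved), 146 and 101 (KO rich) and 93.5 and 95.1 CPM (KO starved) and passed in none of the comparisons. Anln, which links actin and RhoA in the contractile ring, was at 541 and 520.1 CPM in the rich WT libraries, 477 and 443 in the starved WT, 418 and 288 in the rich KO and 277 and 259.9 in the starved KO libraries. It passed between genotypes (-0.59 in rich and -0.78 in starved cells, lower in KO), and its starvation values were -0.21 in WT and -0.39 in KO cells.

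Of the remaining 3 genes, Top2a, the topoisomerase that untangles sister chromatids, stood at 1067 and 1062 CPM in the rich WT libraries, 274 and 275 in the starved WT, 1085 and 726 in the rich KO and 418 and 399 in the starved KO libraries. It fell 3.88-fold in WT and 2.22-fold in KO cells. Mki67, which coats mitotic chromosomes and marks proliferating cells, was at 932 and 881 CPM in rich and 264 and 211 in starved WT cells, and 1877 and 990.0 in rich and 625 and 596 in starved KO cells. It fell in both genotypes (-1.93 and -1.23), and the rich KO replicates lay far apart, with a value against rich WT of 0.66 (adjusted p = 0.0955). Foxm1, a transcription factor that drives many of the genes above, was at 258 and 254 (WT rich), 134 and 118 (WT starved), 181 and 268 (KO rich) and 270.4 and 274 CPM (KO starved). The starved WT libraries were the lowest of the 8 and the starved KO libraries the highest. Foxm1 fell in WT cells (-1.02), its KO value was 0.28 (adjusted p = 0.352), and the responses differed by 1.29 (adjusted p = 0.0234). All 3 genes were higher in starved KO than in starved WT cells, by 0.58 (Top2a), 1.11 (Foxm1) and 1.36 (Mki67).

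The rich KO replicates lay further apart than the replicates of the other groups. Of the 42 genes 16 were over 1.5-fold apart in that pair and 2, Cdc20 and Cenpe, were over 2-fold apart, against 0 in each of the other 3 groups. Replicate 1, the library with the lowest total, was above replicate 2 in 30 genes, led by Cenpe, Mki67, Nuf2, Cenpf and Kif11, and below it in 12, led by Cdc20, Aurkb, Cenpa and Kif22. Of the 12 genes with a different response, Cdc20 and Cenpa were over 1.5-fold apart in this pair.

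**Figure D5:**
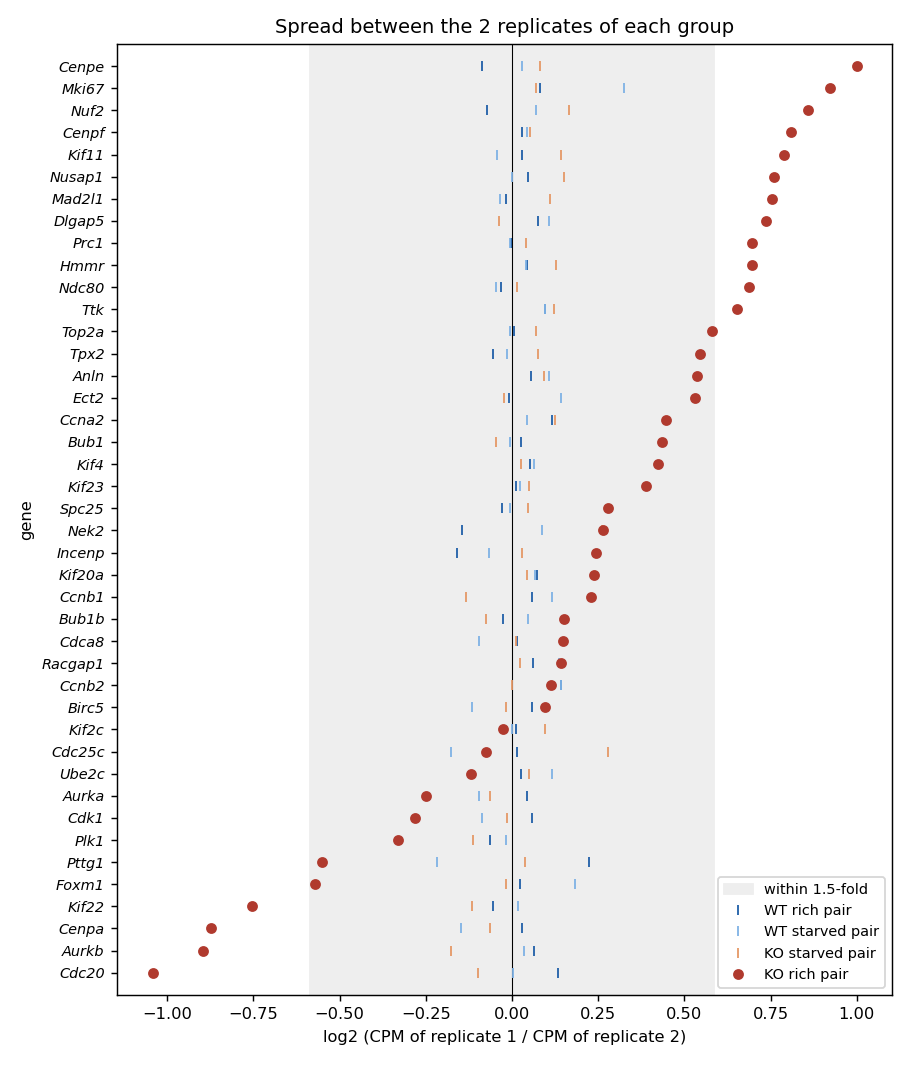
For each mitosis gene, log2 of the CPM of replicate 1 over replicate 2 in the KO rich pair (large red points) and in the other 3 groups (ticks); the grey band marks 1.5-fold. In the KO rich pair 16 genes lie outside the band, and in the other groups none does.

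Other genes of the mitotic machinery were counted in 6 lists that share no member with the 42. Over all genes, as given above, 18.0% fell and 14.8% rose in WT starvation and 9.77% and 8.44% in KO starvation. In WT starvation 6 of 22 condensin and cohesin genes fell and 0 rose, as did 12 and 0 of 25 other spindle and cytokinesis genes and 6 and 0 of 17 entry and exit regulators. Ccnf (cyclin F) fell by 2.52 on the log2 scale (adjusted p = 0.00158), Cks2, a CDK-binding subunit, by 1.69 and Kif14, a cytokinesis kinesin, by 1.45. Of 32 other kinetochore and checkpoint genes 5 fell and 3 rose, among them Dsn1 (log2 1.27) and Cenpn (1.08), and of 17 anaphase-promoting complex genes 4 fell and 1, Anapc16, rose (1.26). In KO starvation 10 of 22 condensin and cohesin genes, 14 of 32 kinetochore genes, 2 of 17 anaphase-promoting complex genes, 8 of 17 entry and exit genes and 12 of 25 spindle genes fell, and of these lists only the spindle list had a gene that rose (1). Wee1, which inhibits CDK1, fell by 1.64 in KO cells (adjusted p = 0.00168). In starved cells 22 of 32 kinetochore genes were lower in KO than in WT and 1 was higher, against the 26.8% and 27.8% of all genes given above, with Nsl1, a subunit of the MIS12 complex, at -2.21. Cdc25a, a phosphatase that activates CDKs, averaged 49.9 CPM in starved WT and 9.41 in starved KO cells (log2 -2.41).

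The transcriptional regulators of the programme, 23 genes of the E2F, DREAM, Myb and NF-Y families, moved in both directions in WT cells (4 rose, 7 fell) and downward in KO cells (0 rose, 9 fell). E2f1, an activator of cell cycle genes, rose in WT cells from a mean of 59.4 to 126 CPM (log2 1.08), and averaged 125 in rich and 70.3 CPM in starved KO cells. The difference between responses was -1.91 (adjusted p = 0.00324), opposite in sign to that of the 12 mitosis genes. The repressors E2f7 and E2f8 had log2 values of -1.75 and -1.55 in KO starvation, and Mybl1 (A-Myb) of -1.61, all called lower. E2f8 fell in WT cells as well (-0.92, adjusted p = 0.00742), and E2f7 averaged 93.5 CPM in rich and 60.3 in starved WT cells. Of the 23 genes, 7 had a lower and 0 a higher response in KO than in WT cells, where 5.91% and 7.43% of all genes did. The other lists had 9 lower and 1 higher of 32 (kinetochore), 4 and 1 of 22 (condensin and cohesin), 3 and 2 of 17 (entry and exit), 1 and 0 of 17 (anaphase-promoting complex) and 1 and 0 of 25 (spindle and cytokinesis).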

How the data were processed

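The submitters' processing notes name TopHat2 2.0.9, bedtools and the build mm9, without their roles. The authors deposited whole-number counts for 31055 transcripts in 8 RNA-seq libraries, which were used as deposited; no label or header states how strand or multimapping reads were handled. For each symbol the transcript with the highest total was kept. Samples were grouped by the labels. All 8 libraries entered 1 fit in edgeR 4.0.16 (R 4.3.3; TMM, filterByExpr, glmQLFit and glmQLFTest) with 1 mean per group, 4 residual degrees of freedom and a biological coefficient of variation of 18.5%; p-values were Benjamini-Hochberg adjusted over 13882 genes at 0.05. The code was tested on simulated data. The mitosis genes and all lists were chosen with earlier results of these data known. All 42 genes were named, with values in every library. The plan had limited these values to genes with the smallest p, the highest level in a role or a direction against their role. Of each other list, the 3 genes with the smallest p per comparison could be named. Alternatives were RLE or total-count scaling, other filters, DESeq2 1.42.0, limma-voom (3.58.1) with library weights, a replicate block, the lowest transcript, the compared libraries alone, and each library left out. The labels do not say whether replicate numbers pair samples, and correlations of their deviations between groups ran from -0.03 to 0.184. Promoters came from RefSeq.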

Additional observations from a re-analysis of the deposited data

Results flagged for a closer look

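For 12 mitosis genes the starvation response differed between WT and KO cells in a test of the difference itself (edgeR quasi-likelihood test, Benjamini-Hochberg adjusted p under 0.05), and each value is the KO response minus the WT response on the log2 scale. The values were 2.11 for Ube2c, 1.80 for Cdc20, 1.79 for Plk1, 1.70 for Aurka, 1.66 for Cenpa, 1.29 for Foxm1, 1.26 for Kif23, 1.08 for Ccnb1, 1.03 for Ccnb2, 0.83 for Bub1b, 0.79 for Kif20a and 0.76 for Racgap1. In all 12 genes both starved WT libraries lay below both rich WT libraries. Cdc20 and Cenpa are the ones whose rich KO replicates were over 1.5-fold apart.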

How the results depend on the processing

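The count of mitosis genes that fell in WT cells stayed within 1.5 times the reported 31 in the settings that kept all 8 libraries, and ran from 19 to 41 with a library left out (0 to 1 that rose). With limma-voom and library weights, or a fit to the 4 WT libraries alone, 1 gene (Ndc80) rose, where 33.8% and 36.4% of all genes did. In KO starvation the count that fell was 0 in the 4 libraries alone and 0 to 33 with a library left out (0 to 4 that rose). Between genotypes in rich medium it was 7 lower and 0 higher in the 4 libraries alone, and 8 to 33 lower and 0 to 10 higher with a library left out. Between genotypes after starvation it was 19 lower by limma-voom and in the 4 libraries alone, and 4 to 19 lower and 6 to 16 higher with a library left out. For the difference between responses it was 3 to 27 higher and 0 to 12 lower with a library left out, with 1 lower by DESeq2 and by limma-voom. Between genotypes after starvation, 40.9% of all genes were lower and 39.8% higher by limma-voom. In the 4 libraries alone 41.8% were lower and 40.6% higher. The 19 lower in these settings are therefore no result about the mitosis genes as a group. The counts over all genes moved in the other settings too, and why was not tested. With a library left out, its group held 1 library and gave no spread of its own. Without either KO rich library, the pair with the widest spread was no longer part of the estimate. The highest counts for the difference between responses, in both directions, came from these fits. Larger shares of all genes passed there too, in both directions, than with no library left out. These highest counts are therefore no result about the mitosis genes as a group. With the replicate number as a block, 31 genes fell in WT and 21 in KO starvation (16.5% and 7.93% of all genes). In rich KO cells 19 were lower and 1 higher (19.9% and 21.9% of all genes). In starved KO cells 12 were lower and 14 higher (25.9% and 27.1%). The responses differed in 12 genes, where 6.36% of all genes had a higher and 4.38% a lower response. The block moved no count by over 1.5 times. Whether replicate numbers pair samples is not stated in the labels.

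Some log2 values near 0 changed sign. In KO starvation, the opposite sign was found in Cenpa 0.00047 (no filter), 0.027 (the replicate block), Kif23 0.046 (limma-voom). Between genotypes in rich medium, the opposite sign was found in Ccna2 0.011 (RLE), 0.0026 (the stricter filter), 0.010 (DESeq2), 0.00065 (the 4 libraries alone), Cenpf 0.0091 (RLE), 0.0099 (DESeq2), Ndc80 -0.097 (total counts), -0.019 (no filter), -0.17 (limma-voom), -0.017 (the replicate block), Pttg1 0.079 (limma-voom), Racgap1 0.020 (RLE), 0.013 (the stricter filter), 0.019 (DESeq2), 0.0049 (the lowest transcript), 0.011 (the 4 libraries alone). Between genotypes after starvation, the opposite sign was found in Cenpf -0.027 (total counts), Mad2l1 -0.022 (total counts), Nuf2 -0.0053 (total counts), Pttg1 0.071 (the lowest transcript). For the difference between responses, the opposite sign was found in Pttg1 -0.012 (total counts), -0.10 (limma-voom). With a library left out, more crossed 0. In KO starvation, the ranges were Cdc20 -0.095 to 0.94, Cdc25c -0.18 to 0.11, Cenpa -0.35 to 0.51, Kif23 -0.20 to 0.20, Nek2 -0.016 to 0.28. Between genotypes in rich medium, the ranges were Birc5 -0.12 to 0.011, Ccna2 -0.30 to 0.18, Cenpe -0.32 to 0.72, Cenpf -0.53 to 0.32, Foxm1 -0.51 to 0.026, Ndc80 -0.42 to 0.30, Nuf2 -0.17 to 0.72, Pttg1 -0.36 to 0.15, Racgap1 -0.12 to 0.057, Top2a -0.59 to 0.020, Tpx2 -0.18 to 0.40, Ttk -0.20 to 0.49. Between genotypes after starvation, the ranges were Pttg1 -0.12 to 0.089. For the difference between responses, the ranges were Anln -0.42 to 0.15, Cenpf -0.22 to 0.62, Dlgap5 -0.72 to 0.051, Ect2 -0.13 to 0.43, Hmmr -0.26 to 0.47, Kif22 -0.38 to 0.34, Nuf2 -0.60 to 0.29, Nusap1 -0.27 to 0.52, Pttg1 -0.17 to 0.34, Spc25 -0.23 to 0.087. No mitosis gene that passed a test changed sign under RLE or total-count scaling. The number of libraries, 2 a group, limits the precision, and KO rich replicate 1 had the lowest total count.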

Other observations

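A list of 12 quiescence and arrest genes, which are not part of the mitotic machinery, did not move in 1 direction. In WT starvation 2 rose and 5 fell, where 14.8% of all genes rose and 18.0% fell, and in KO starvation 2 rose and 5 fell, where 8.44% and 9.77% did. Cdkn1a, the CDK inhibitor p21, averaged 16.6 CPM in rich and 66.8 in starved WT cells (log2 fold change 2.00, adjusted p = 0.00337), and 101 in rich and 136 in starved KO cells. Ccng2, a cyclin linked to cell cycle arrest, rose in WT cells (log2 1.41) and fell in KO cells (-1.68), a difference of -3.09 (adjusted p = 0.00107). Gas1, a growth arrest gene, fell in both genotypes, with log2 values of -4.16 in WT and -2.21 in KO cells. Cdkn2a, the locus of the p16 and p19 arrest proteins, averaged 141 CPM in rich WT and 7.90 in rich KO cells, and 144 and 8.62 in starved cells (log2 -4.13 and -4.06, adjusted p = 7.91e-06 and 5.28e-06). The counts do not separate its transcripts, and its part in the levels of the mitosis genes was not tested.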
